A study of Mus musculus with 4 samples.

Results

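The genes described here encode fibrillar collagen chains and other products of mesenchymal stromal cells. They were chosen by symbol and number 10 of the 18194 genes named on the array. They are the collagen genes Col1a1, Col1a2, Col3a1 and Col5a2, the proteoglycan genes Dcn and Lum, the receptor genes Pdgfra and Pdgfrb, and the contractile genes Acta2 and Tagln, which together had 21 probe sets. Expression was measured on Affymetrix mouse genome arrays in 4 cell populations sorted on day 6 of differentiation of Runx1(Venus/+) ES cells, with 1 array per population. All populations came from the same heterozygous line, derived from CCE ES cells, in which the Venus reporter sits at the proximal promoter of 1 Runx1 allele, and all had grown on layers of OP9 cells. Population 1 was Runx1-Venus negative and positive for VE-cadherin and Flk1. Population 2 was positive for Runx1-Venus and VE-cadherin and negative for CD41, population 3 was positive for all 3 markers, and population 4 was positive for Runx1-Venus and CD41 and negative for VE-cadherin.

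Fibrillar collagens are secreted as triple helices and assemble into the fibres that give connective tissue its tensile strength. Type I collagen combines chains of Col1a1 and Col1a2, type III collagen is made of Col3a1 chains, and type V collagen, to which Col5a2 contributes, starts and limits the growth of fibrils. Decorin (Dcn) and lumican (Lum) are small leucine-rich proteoglycans that bind collagen fibrils, Pdgfra and Pdgfrb encode the receptors through which mesenchymal cells and pericytes respond to platelet-derived growth factors, and smooth muscle actin (Acta2) and transgelin (Tagln) belong to the actin cytoskeleton of smooth muscle and activated stromal cells. OP9 cells are a mouse stromal line, so that the array reads their transcripts and those of the ES cell progeny with the same probe sets. In RNA of sorted populations, fewer cells of a type and less RNA per cell cannot be told apart.

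Col1a2 and Col3a1 had the closest profiles among the members above 100, a signal that the study required of a gene in at least 1 sample, and part of the promoter of each is shown for this reason. The stretches are from RefSeq on build GRCm38.p6, which held a promoter for 4 of the 10 genes, and capitals mark a match to a promoter element that was searched for on both strands.
Col1a2, plus strand, chr6:4505497-4505526: aaaagaatggaaCCAATttaagaagccccg
Col3a1, plus strand, chr1:45311409-45311438: actaatgcatgtTATAAAcatatgcatagg
In Col1a2 the capitals mark CCAAT, known as a binding element of the factor NF-Y. It begins 109 bases before the annotated start site, with an inverted copy at the start site itself, and was found in 37.4% of the 32851 promoters of the same length. The capitals in Col3a1 mark TATAAA, which begins 117 bases before the annotated start site and was found in 13.6% of them. These are the letters of the TATA box, which as a core promoter element lies closer to the start. The CArG box, the element of serum response factor, was searched only in its strict form, with nothing but A and T between CC and GG. This form was matched in 1.63% of all promoters, and in none of the 4 promoters searched here, Col1a2, Col3a1, Pdgfra and Acta2. Forms of the box with another base inside were not searched, so these genes may still carry one.

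Each array gave a signal above 100 for 8097 to 8666 genes, and 9468 genes exceeded 100 in at least 1 population. Over these genes the median log2 ratio, computed with signals raised to 100, was 0.36 for population 4 over population 1, 0 for population 2 over 1, 0.22 for population 3 over 2 and 0.06 for population 4 over 3. The hybridisation controls, which are added in equal amounts, stood at 104, 79.9 and 79.5% of their population 1 level in populations 2, 3 and 4, and the poly-A controls at 89.8, 119 and 105%. The ratio of 5′ to 3′ actin probe sets was 0.721 to 0.779 on all arrays. Each population had 1 array on this platform, so differences between populations carry neither a test nor an error. The study's replicate sample set was run on Agilent arrays and was not analysed here. On the same arrays, the brightest probe set of a gene and its other probe sets differed by a median of 0.29 in the log2 ratio of population 4 over 1, 0.19 for population 2 over 1, 0.17 for population 3 over 2 and 0.23 for population 4 over 3 (6780 pairs of probe sets). These probe sets share arrays and RNA, so the values do not show how far a second array would differ.

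Of the 10 genes, 6 had a signal above 100 in at least 1 population and 4 did not. Collagen genes Col1a2, Col3a1 and Col5a2 and the contractile gene Tagln were lower by 2-fold or more in population 4 than in population 1. Acta2 was 1.81-fold lower and Pdgfrb 1.28-fold lower. Col1a2, Col3a1 and Col5a2 were already lower in population 2 than in population 1, with log2 ratios of -0.81, -0.98 and -1.18, where Tagln, Acta2 and Pdgfrb had 0.26, -0.14 and 0.12. Over all 10 members the median log2 ratio of population 4 over 1 was -0.61, against 0.36 over the 9468 genes above 100 and 0 over all 18194 genes. Levels of different genes are not set against each other here, because each probe set has its own scale. Where signals of a list are summed, the sum is weighted towards its brightest probe sets.

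**Figure D1:**
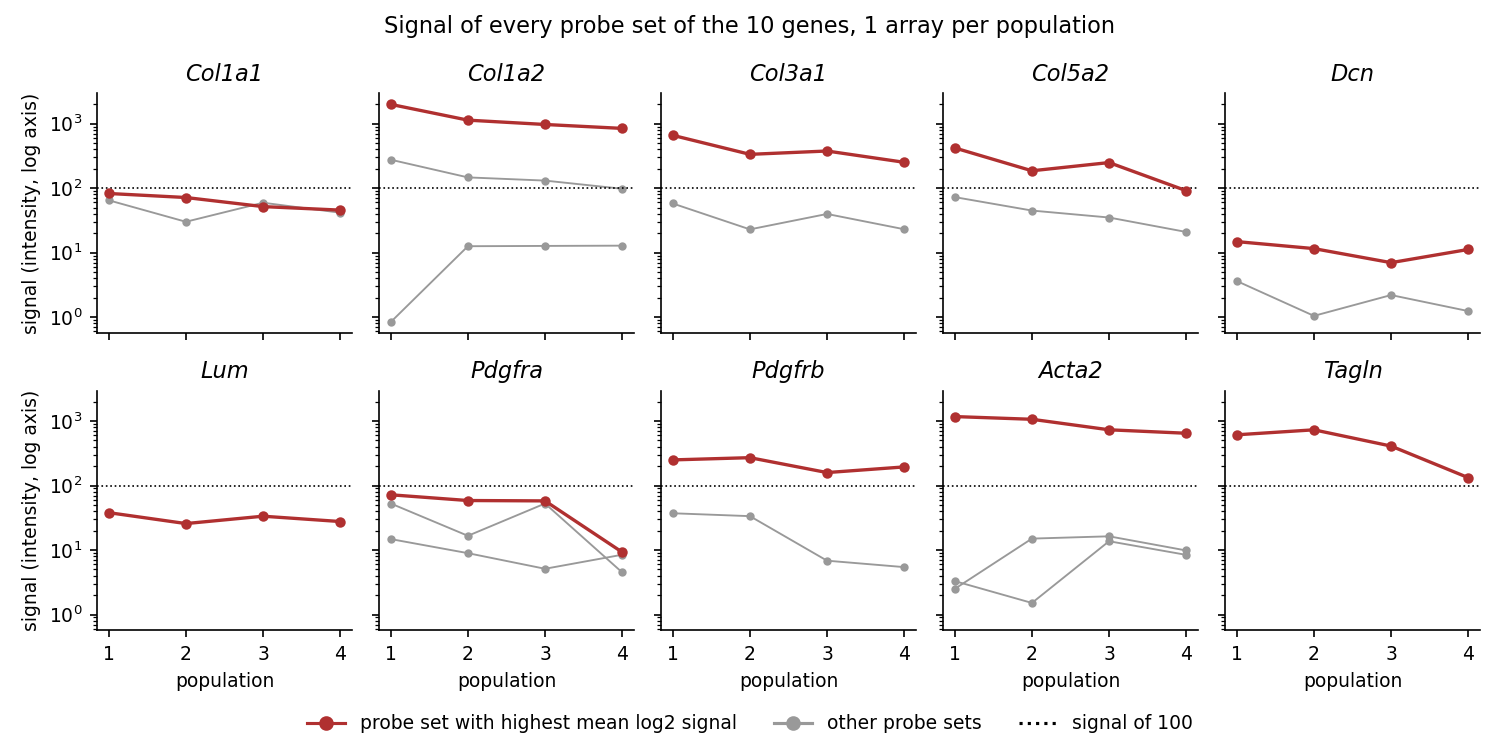
Signal (intensity, log axis) of all 21 probe sets of the 10 genes in populations 1 to 4, each population being a single array, with no error drawn. Red points are the probe set used for each gene and grey points the others, and the dotted line marks a signal of 100. Col1a2 lies at 1988 in population 1 and 843 in population 4, whereas all probe sets of Col1a1, Dcn, Lum and Pdgfra stay below 100.

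Among the fibrillar collagen genes, Col1a2, the gene of the second chain of type I collagen, had signals of 1988, 1132, 969.9 and 843 in populations 1, 2, 3 and 4. It was 2.36-fold lower in population 4 than in population 1, and 1.76-fold lower in population 2 than in population 1. Between the 3 Runx1-positive populations its log2 ratios on the deposited scale were -0.22 for population 3 over 2, which changed sign between scales, and -0.20 for population 4 over 3. A second probe set of Col1a2 had 276, 147, 131 and 97.7 in the same order. The third had signals of 0.838, 12.6, 12.7 and 12.8, far below 100 and in the opposite direction.

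Col3a1, the gene of type III collagen, had signals of 658, 334, 376 and 251 across populations 1 to 4. Population 1 was again highest, and the gene was 2.62-fold lower in population 4 and 1.97-fold lower in population 2 than in population 1. Its other probe set lay below 100 throughout, at 57.7, 22.9, 39.7 and 23.0. Both probe sets were thus highest in population 1. The brighter was lowest in population 4, and the other was nearly equal in populations 2 and 4.

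Col5a2, the gene of a type V collagen chain, differed most among the collagen members. Its signals were 419, 186, 249 and 91.2 in populations 1 to 4, and the other probe set had 72.5, 44.9, 34.98 and 20.9. With signals raised to 100, it was 2.26-fold lower in population 2 than in population 1 and lower in population 4 than in population 3, by at least 2.49-fold. Set against population 1, population 4 was lower by at least 4.19-fold.

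The partner chain of type I collagen, Col1a1, was not above 100 in any population. Its brighter probe set had signals of 82.5, 71.5, 51.7 and 45.6 across populations 1 to 4 and the other 64.7, 30.05, 59.3 and 41.6. Both were highest in population 1. No fold is given, as all values lie below the limit.

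Of the proteoglycan genes, decorin had signals of 14.8, 11.5, 6.98 and 11.2 across populations 1 to 4 by its brighter probe set and at most 3.62 by the other. Lumican, with 1 probe set, had 38.0, 25.7, 33.5 and 27.7. Neither gene was thus above 100 in any population, although both are abundant products of many fibroblasts.

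Pdgfra, the receptor gene that marks much of the early paraxial and mesenchymal lineage, was likewise below 100 by all 3 probe sets. The brightest had signals of 71.9, 58.6, 57.8 and 9.27 across populations 1 to 4, and another had 52.6, 16.6, 52.6 and 4.50. Population 4 was lowest by both, at values below 100, for which no fold is given. Pdgfrb, which marks pericytes and other mural cells, had signals of 249.8, 271, 159 and 194. It was highest in population 2 and lowest in population 3, with log2 ratios of 0.12 for population 2 over 1, -0.77 for population 3 over 2 and 0.29 for population 4 over 3. The other Pdgfrb probe set had 37.2, 33.5, 6.84 and 5.43.

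Acta2 had signals of 1173, 1065, 732 and 647 across populations 1 to 4. On the deposited scale the largest of its step differences lay between populations 3 and 2, with a log2 ratio of -0.54. This signal comes from a probe set of the kind that Affymetrix marks as shared between transcripts, and actin genes are close in sequence, so that other actin transcripts may be read with it. The other 2 Acta2 probe sets did not exceed 16.3 in any population.

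Tagln, read by a single probe set, had signals of 612, 731, 409 and 133 across populations 1 to 4. It was highest in population 2 and differed most at the end of the series. Tagln was 1.79-fold lower in population 3 than in population 2, 3.09-fold lower in population 4 than in population 3, and 4.62-fold lower in population 4 than in population 1.

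**Figure D2:**
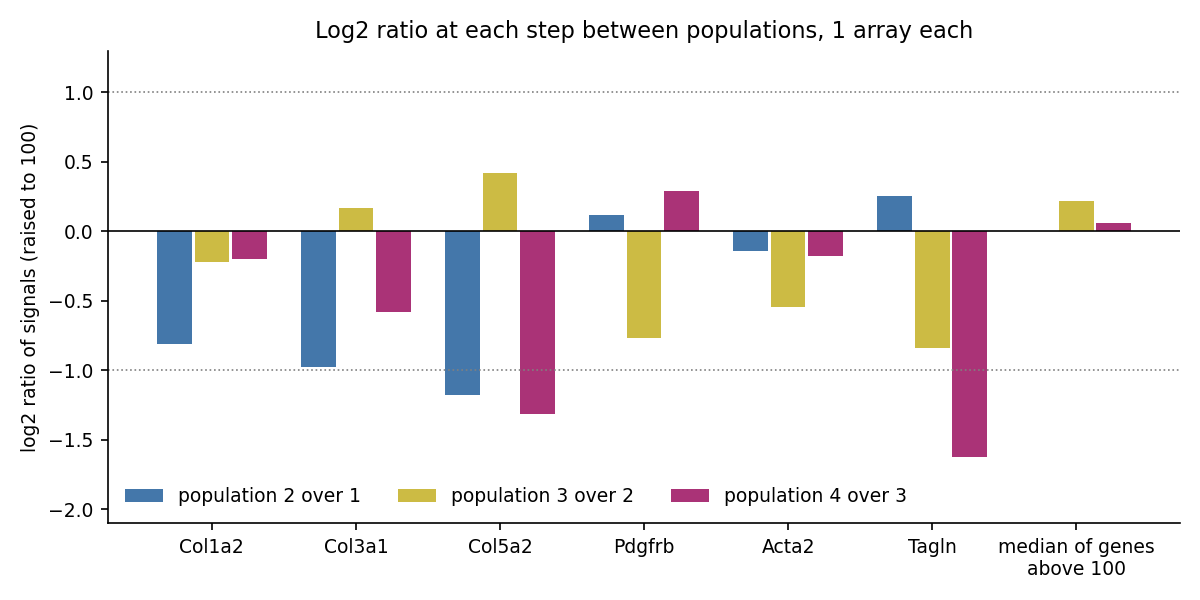
Log2 ratio of signals (raised to 100) at each step between populations for the 6 members with a signal above 100, and the median over 9468 genes, with 1 array per population and no error drawn. Dotted lines mark 2-fold differences. Col1a2, Col3a1 and Col5a2 lie at -0.81, -0.98 and -1.18 for population 2 over 1, and Tagln lies at -1.63 for population 4 over 3.

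Counted at 2-fold with signals raised to 100, 4 of the 10 genes (Col1a2, Col3a1, Col5a2 and Tagln) were lower in population 4 than in population 1, against 6.72% of all 18194 genes, and 0 were higher, against 11.7%. Over the 9468 genes above 100, which hold 6 of the members, 12.9% were lower and 22.4% higher. Between populations 2 and 1, 1 member (Col5a2) was lower, against 2.18% of all genes and 4.19% of those above 100, and 0 were higher, against 1.52% and 2.92%. For population 3 over 2, 0 members were lower, against 0.132% of all genes and 0.253% of those above 100, and 0 were higher, against 1.62% and 3.11%. For population 4 over 3, Col5a2 and Tagln were lower, 2 members against 6.33% of all genes and 12.2% of those above 100, and 0 were higher, against 4.13% and 7.94%. The 4 members below 100 could not be called in either direction. These counts come from single arrays without a test, and their background depends on the scale: for population 4 over 1, 2123 genes were called higher and 1223 lower on the deposited scale, 1358 and 1504 on the array median, and 3312 and 980 on the hybridisation controls.

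The ratios were also computed on other scales. Over the deposited scale, the array median, quantile normalisation, and the hybridisation and poly-A controls, the log2 ratio of population 4 over 1 ranged over -1.53 to -0.91 for Col1a2, -1.68 to -1.06 for Col3a1, -2.23 to -1.87 for Col5a2 and -2.50 to -1.88 for Tagln. Acta2 ranged over -1.15 to -0.53 and Pdgfrb over -0.66 to -0.03. All 6 thus stayed lower in population 4 on each of these scales, Pdgfrb by almost nothing on the hybridisation controls. For population 2 over 1, Col1a2, Col3a1 and Col5a2 ranged over -0.86 to -0.66, -1.03 to -0.82 and -1.23 to -1.02. Acta2 changed sign there, over -0.19 to 0.02. Likewise, the ratio of population 3 over 2 changed sign between scales for Col1a2 (-0.63 to 0.15) and Col3a1 (-0.23 to 0.55), so that no order between these populations is given for them.

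**Figure D3:**
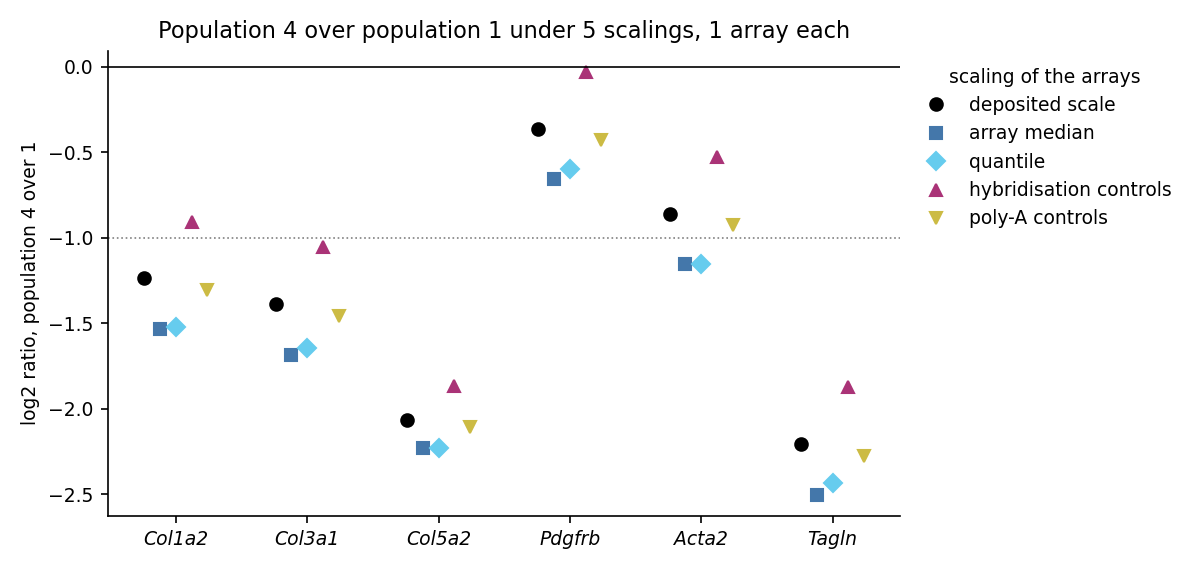
Log2 ratio of population 4 over population 1 for the 6 members above 100 under 5 scalings of the arrays, with 1 array per population. Each marker is 1 scaling, and the dotted line marks a 2-fold difference. Tagln lies between -2.50 and -1.88 and Pdgfrb between -0.66 and -0.03.

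Other fibrillar and fibril-associated collagens gave a mixed picture. Of 7 further fibrillar collagen genes, 2 had a signal above 100 and 0 were at least 2-fold lower or higher in population 4 than in population 1. Col5a1, whose product joins that of Col5a2 in type V collagen, had signals of 308, 590.0, 616 and 398 across populations 1 to 4. It was thus lowest in population 1, where Col5a2 was highest, with log2 ratios of population 2 over 1 of 0.94 for Col5a1 and -1.18 for Col5a2. The microfibrillar genes were highest in population 1, as Col1a2 was. Col6a1 had signals of 224, 121, 132 and 83.6, Col6a2 of 440.2, 238, 207 and 163, and Col6a3 of 437, 233, 255 and 224. Of the 10 genes of this list, 4 were above 100 and 2 (Col6a1 and Col6a2) lower by 2-fold or more in population 4 than in population 1.

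The small leucine-rich proteoglycans had 2 of 11 genes above 100. Biglycan (Bgn) had signals of 1183, 748, 719 and 510.3 across populations 1 to 4 and osteoglycin (Ogn) 169, 86.2, 86.1 and 71.9. Biglycan was the 1 gene of this list that was lower by 2-fold or more in population 4 than in population 1, with a log2 ratio of -1.21. The others, among them the fibromodulin gene Fmod (22.0 to 29.3), had values below 100 as Dcn and Lum did.

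Genes for folding and processing collagen chains had mixed profiles. Of 25 measured, 20 were above 100, 11 were lower by 2-fold or more in population 4 than in population 1 and 0 at least 2-fold higher. The shares over all genes were 6.72% lower and 11.7% higher. Serpinh1, the collagen chaperone, had signals of 4581, 4254, 3926 and 378 across populations 1 to 4. Bmp1, the protease that removes the C-propeptide of fibrillar procollagens, had 586, 556, 498 and 59.5, and the lysyl hydroxylase gene Plod2 had 603, 615, 551 and 198. Serpinh1, Bmp1 and Plod2 kept 92.9, 94.8 and 102% of their population 1 signal in population 2, where Col1a2 kept 57.0% and Col3a1 50.7%. Other genes of the list were nearer to the collagen genes there. Plod1, another lysyl hydroxylase gene, had 386, 204, 272 and 89.1 and kept 52.8% in population 2, and the prolyl isomerase gene Fkbp14 had 277, 168, 181 and 94.1 and kept 60.8%. Pcolce, which encodes an enhancer of the C-propeptidase, had 391, 234, 179 and 141 and kept 59.9%, and the crosslinking enzyme gene Lox had 145, 92.0, 91.0 and 74.9 and kept 63.5%. P4hb, the disulphide isomerase that is also a subunit of prolyl hydroxylase, had 5210, 6584, 6916 and 3652. Adamts3, an N-propeptidase gene, was highest in population 4, at 195, against 20.0 in population 1.

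Among the ligands of the PDGF receptors, Pdgfb, which endothelial cells secrete to recruit pericytes, had signals of 1350, 551, 1027 and 109 across populations 1 to 4. Pdgfa had 189, 104, 94.6 and 76.1 and Pdgfc 223, 102, 114 and 46.0, while Pdgfd stayed at or below 14.5. In population 4, Pdgfb and Pdgfc were at least 2-fold lower than in population 1, by 12.4-fold and at least 2.23-fold.

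Of 19 smooth muscle genes, 12 were above 100. In population 4, 4 of the 19 were at least 2-fold lower than in population 1 and 1 at least 2-fold higher. Over all genes the shares were 6.72% and 11.7%. Smoothelin (Smtn) had signals of 590.5, 381, 499.6 and 58.8 across populations 1 to 4, and the caldesmon gene Cald1 had 3260.5, 2951, 2373 and 928. The myosin light chain kinase gene Mylk had 420, 282, 553 and 83.0. The gene that was higher, Itga8, an integrin chain of smooth muscle and mesenchyme, had 188, 135, 129 and 688. Some other genes of contractile smooth muscle were below 100 in all populations, with Myh11 at 6.41 to 16.5, Cnn1 at 30.9 to 63.2, Des at 10.2 to 80.7 and Myocd at 6.99 to 26.1. Their regulator Srf had 1427, 1180, 1287 and 909, and Tagln2, the transgelin of many other cell types, 6541, 6402, 6904 and 4612.

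Markers of stromal cells and of the OP9 type of stroma were measured beside the members. Of 36 genes, 22 were above 100 in at least 1 population, with 21, 18, 15 and 12 above 100 in populations 1 to 4 and summed signals of 30266, 23248, 27515 and 9243. Of these, 11 were lower by 2-fold or more in population 4 than in population 1 and 1 (Thbs1) was higher. Over all genes the shares were 6.72% and 11.7%. The summed signal rests largely on Sparc (10190, 7959, 9394 and 682) and Fn1 (8134, 8311, 9004 and 5118), which endothelial cells also express. The other genes of the list had differing profiles. Some were highest in population 1 and lowest in population 4 on the deposited scale, as Col1a2 was. Cdh11, the cadherin of mesenchymal cells, had 468, 308, 209 and 189, and matrix Gla protein (Mgp) 604, 429, 335 and 203. For Cdh11 the ratio of population 4 over 3 changed sign between scales (-0.14 to 0.04). The genes Adipoq and Fabp4, which adipocytes express, had 147, 103, 97.5 and 57.3, and 425, 195, 206 and 90.5. Cebpa, another adipocyte gene, had 18.7, 21.9, 18.4 and 45.4, below 100 throughout and highest in population 4. The cells from which these transcripts came were not tested. Kitl, the gene of stem cell factor, had 3117, 772, 704 and 87.1. Others were highest in population 3, among them the growth factor gene Igf1 (2364, 1236, 3064 and 249), Ebf1, a transcription factor of B cells and adipocyte precursors (540.2, 391, 772 and 44.6), and Cebpb, a transcription factor of early adipogenesis (322, 273, 704 and 565). Serpinf1, which encodes the secreted factor PEDF, had 1483, 1573, 1340 and 371 and thus kept 106% in population 2, and the lipoprotein lipase gene Lpl had 363, 116, 256 and 289 and was lowest there. Several stromal markers were near the bottom of the scale, with Thy1 at 1.59 to 17.6, Fap at 13.5 to 21.0, Vcam1 at 16.9 to 47.1 and Pparg at 2.73 to 53.1. The part of OP9 RNA in the collagen signals was not tested, since both cell sources are mouse.

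Transcription factor genes of mesenchyme were mostly low, with 5 of 19 above 100. Prrx1, a homeobox gene of limb and craniofacial mesenchyme, had signals of 193, 87.6, 95.1 and 69.8 across populations 1 to 4, highest in population 1 like the collagen genes. Twist1 had 118, 239, 77.9 and 22.6 and was thus highest in population 2, as Tagln was. Foxc2 (486, 527, 329 and 18.3) and Hand2 (337, 382, 229 and 41.0) were also highest in population 2 and lowest in population 4, where both were below 100.

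Among 10 pericyte genes, 5 were above 100. Kcnj8 and Abcc9, which encode the channel subunits of pericytes, had signals of 165 and 159 in population 1, and at most 22.4 and 37.5 in the other populations. Pdgfrb was above 100 in all populations by its brighter probe set and below 100 throughout by the other. Mcam, shared by pericytes and endothelium, had 2862, 959.6, 1192 and 18.0, Notch3 had 420.3, 715, 518 and 211, and Rgs5 169, 165, 86.9 and 61.9. The proteoglycan gene Cspg4 stayed at or below 45.0.

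**Figure D4:**
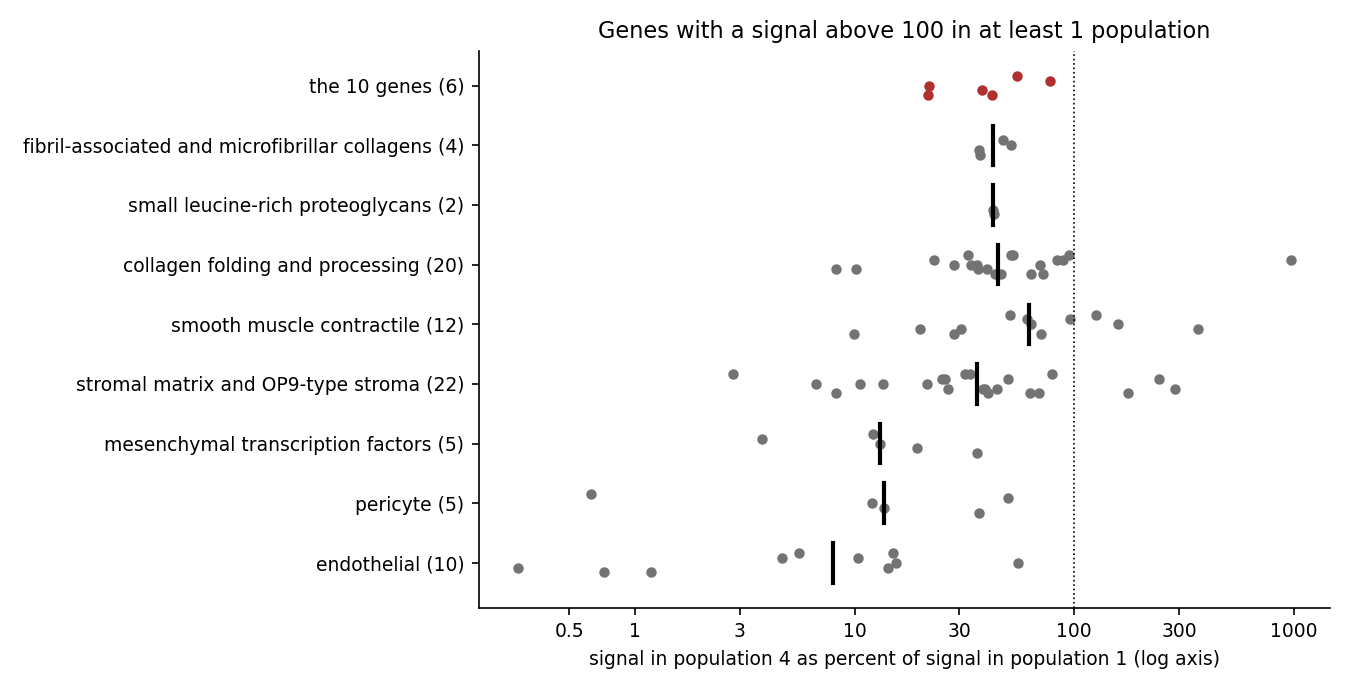
Signal in population 4 as percent of the signal in population 1 (log axis) for genes above 100 in at least 1 population, with the number of genes of each list in brackets and 1 array per population. Points are genes, black bars the median of each list other than the 10 genes, and the dotted line marks equal signals. Col1a2 lies at 42.4% and Col3a1 at 38.2%, whereas Cdh5 lies at 0.720% and Serpinh1 at 8.26%. Signals are drawn as deposited, not raised to 100, and that of Cdh5 in population 4 (40.9) is below 100.

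Many markers of the sorted lineages differed more than the collagen genes between populations 4 and 1. VE-cadherin was itself a marker of the sort, positive in population 1 and negative in population 4. Of 10 endothelial genes, 9 were lower by 2-fold or more in population 4 than in population 1. The other, Egfl7, kept 55.7%, more than Col1a2. Summed signals of the 10 genes were 29270, 20060, 24026 and 3016 in populations 1 to 4. On signals as deposited, VE-cadherin (Cdh5) kept 0.720% of its population 1 signal in population 4, Emcn 0.292% and Sparc 6.70%. Col1a2 kept 42.4%, Col3a1 38.2% and Acta2 55.1%. The Cdh5 and Emcn signals in population 4, 40.9 and 7.28, were below 100. With signals raised to 100, Cdh5 and Emcn were lower by at least 56.8-fold and 25.0-fold. In population 3, Cdh5 kept 85.3% and Sparc 92.2%, while Col1a2 kept 48.8% and Col5a2 59.3%. The endothelial genes varied there, with Emcn at 22.9% and Cldn5 at 33.7%, both below Col1a2, and a median of 83.9% over the 10. Of 10 haematopoietic genes, 8 were higher by 2-fold or more in population 4 than in population 1, with summed signals of 857, 1411, 3987 and 33789. The haematopoietic sum in population 4 rests largely on the globin genes Hbb-y (13284) and Hba-x (10684). In populations 1 and 2 it rests largely on the CD41 gene Itga2b (667 and 1135), so these sums reflect different genes. Genes of the pluripotent state stayed below 100 in all populations (0 of 8 above). Of 7 endoderm genes, only Sox17, which endothelium also expresses, was above 100. Among 10 cardiac genes, 5 were above 100, such as Tbx20 (136, 346, 240.1 and 42.5) and Tnnt2 (127, 268, 277 and 80.8), which were higher in populations 2 and 3 than in population 1.

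The profiles of the members were compared by the root mean square difference of their log2 signals, each centred on its own mean over the 4 populations, as a description over 4 arrays. Col1a2 and Col3a1 were closest (0.16), followed by Acta2 and Pdgfrb (0.20). Tagln was closest to Col5a2 (0.60) and farthest from Pdgfrb (0.83). Outside the lists, among genes with a signal of at least 400, the nearest to Tagln were Errfi1, an inhibitor of the EGF receptor (0.06), Stk39, a kinase gene (0.09), and Yap1, a coactivator of the Hippo pathway (0.10). Yap1 had signals of 1864, 2065, 1381 and 379 across populations 1 to 4. Nearest to Acta2 were the keratin gene Krt8 (0.10), with 451, 438, 278 and 218, and the phosphatase gene Ptprs (0.11), and nearest to Pdgfrb was Fbxo42 (0.15). For Col1a1, Dcn and Pdgfra no neighbours are given, since their signals lay below 100.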

How the data were processed

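The values deposited by the authors are array intensity readings, linear and 1 per probe set, and the submitters' processing notes name MAS5 and GCOS 1.3. The scaling target and detection calls are not given in the sources used here. Of 45101 probe sets, 34958 named a single gene and entered the analysis, and 932 with several symbols and 9211 without a symbol were left out. Symbols came from the array annotation, updated through gene records of assembly GRCm38.p6. A gene was read by its probe set of highest average log2 signal. Log2 ratios used signals raised to 100, so a fold against a lower signal is a lower bound, and a gene was counted from 2-fold. The spread of ratios between probe sets covers pairs in which both exceeded 100 in at least 1 population. With 1 array per population nothing was tested, and precision is limited by the number of arrays. The study's second, replicate sample set, run on Agilent arrays, and its ChIP-Seq data were not analysed here.

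The members and gene lists were chosen with earlier results of these data known. Named genes are all members and, of each list, up to 3 with the highest signal and 4 with the largest difference between populations 4 and 1, plus up to 3 nearest profiles. Myh11, Cnn1, Des, Myocd, Thy1, Fap, Vcam1, Pparg, Cdh11, Mgp, Adipoq, Fabp4, Fmod, Cspg4, Pcolce, Pdgfd, Srf, Abcc9, Adamts3, Thbs1, Fkbp14, Lox, Cebpa, Cebpb, Lpl, Serpinf1, Egfl7, Itga2b and Myl4 were named after their values were seen. A total of 10 alternatives were computed: 4 scalings, 2 probe set rules, 3 floors and no signal minimum. The ratio computation was tested on simulated data. Python 3.11.15, pandas 2.3.3, numpy 2.4.6 and matplotlib 3.10.9 were used.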

Additional observations from a re-analysis of the deposited data

How the results depend on the processing

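Of 120 recomputed medians and counts over the 10 genes, 104 were kept within 1.5 times (counts) or within the median difference between probe sets (medians), and 16 moved. The 104 include results that could not move. Leaving out the signal minimum alters only the counts over all genes, and under every scaling the 4 members below 100 had ratios of 0. The median log2 ratio of population 4 over 1, -0.61 on the deposited scale, was -0.91 after centring on the array median, -0.28 on the hybridisation controls, 0 with the mean over probe sets, -0.18 without shared probe sets and -1.05 with signals raised to 1, where that of population 2 over 1 was -0.33 and that of population 3 over 2 was -0.35. With the mean over probe sets, 1 member was lower by 2-fold or more in population 4 than in population 1 (4 on the deposited scale), 0 in population 2 than in population 1 (1), and 1 in population 4 than in population 3 (2), which was also 1 with signals raised to 200. Members lower by 2-fold or more in population 2 than in population 1 numbered 2 after centring on the array median and 2 on the hybridisation controls. Those lower in population 3 than in population 2 numbered 2 after centring, 2 after quantile normalisation and 2 on the poly-A controls (0). Col1a2 changed sign with the mean over probe sets, to a log2 ratio of 0.026 in population 4 over 1, as 1 of its 3 probe sets had 0.838 in population 1 and 12.8 in population 4. Without shared probe sets, Acta2 was below 100 in all populations.

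Over all genes above 100, population 4 against 1 had 2123 at least 2-fold higher and 1223 lower, against 1358 and 1504 after centring, 1425 and 1467 after quantile normalisation, 3312 and 980 on the hybridisation controls, and 1560 and 802 when probe sets were averaged. For population 3 over 2 (294 and 24) they were 114 and 60, 116 and 63, 1076 and 7, and 194 and 14 in the same order, and 97 and 87 on the poly-A controls. Population 2 over 1 had 276 higher and 397 lower, and 468 and 300 on the poly-A controls. Raising signals to 1 gave 444 and 598 there, and 582 and 50 for population 3 over 2, where raising them to 50 gave 461 higher and raising them to 200 gave 163 and 8. Population 4 over 3 had 752 higher and 1152 lower, and 1063 and 967 on the poly-A controls. The causes were not tested. No paired analysis was possible because there is 1 array per population and the labels carry no replicate numbers.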

Other observations

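Genes outside the lists with profiles nearest to the collagen members were examined after the values had been seen. Nearest to Col1a2, by the root mean square difference of centred log2 signals over the 4 arrays, were Cpe, carboxypeptidase E (0.08), and Timp2, an inhibitor of matrix metalloproteinases (0.08). Cpe had signals of 1169, 586, 552 and 446 across populations 1 to 4 and Timp2 442, 292, 231 and 209. Nearest to Col3a1 was Hspg2, the gene of the basement membrane proteoglycan perlecan (0.04), with 680, 370.3, 402 and 268. Near Col5a2 was Ext1, which encodes a heparan sulphate polymerase (0.07), with 1375, 568, 717 and 295. All 4 genes were highest in population 1 and lowest in population 4 on the deposited scale.

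Of the cardiac list, Tnni1, the gene of slow skeletal troponin I, had signals of 80.2, 153, 286 and 1368 across populations 1 to 4, and Actc1, cardiac actin, 114, 90.8, 127 and 216. Both were highest in population 4, where Tagln was lowest. Acta2 was lowest there on the deposited scale, but its ratio of population 4 over 3 changed sign between scales (-0.18 to 0.003). Other contractile genes of the cardiac list went the other way. Tnnt2 (127, 268, 277 and 80.8) and Myl4 (118, 60.2, 107 and 52.0) were lowest in population 4.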
